A study of Mus musculus with 2 samples.

Results

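The anti-Rtl1 miRNAs are a group of 7 miRNA hairpins annotated inside the retrotransposon-like gene Rtl1 on mouse chromosome 12, in the imprinted Dlk1-Dio3 region. They are Mir431, Mir433, Mir127, Mir434, Mir432, Mir136 and Mir3071. They were taken by name and position, as 7 of the 1174 Mir hairpins of the GENCODE vM21 annotation, and every small RNA tag that matched one of them without mismatch was counted. Reads were found on 5 of the 7, against 814 of all 1174 hairpins. The 5 hairpins gave 10 mature arms, 9 of which had fewer reads per clean read in AICAR-treated than in DMSO-treated cells, while miR-434-3p had more. For miR-431-5p, among the 9, the difference lay within counting error, and the direction of miR-434-3p was known beforehand. Fewer reads were also found for 224 of all 529 arms tested and for 61 of 69 other plus-strand arms of the region.

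In the Dlk1-Dio3 region, the genes Dlk1, Rtl1 and Dio3 are expressed from the paternal chromosome, and a chain of noncoding RNAs (Meg3, antisense Rtl1, Rian and Mirg) is expressed from the maternal one. Most of the region's miRNAs are cut out of that maternal transcript. The miRNAs that lie opposite Rtl1 are perfectly complementary to the Rtl1 mRNA and are known to direct its cleavage, in the manner of a small interfering RNA. A hairpin is cut by Drosha and Dicer into a duplex of a 5p and a 3p arm, of which usually 1 is kept by an Argonaute protein. Bases 2 to 8 of the kept strand, the seed, select other target mRNAs, so a shift of the 5′ end changes the targets while a shift of the 3′ end does not. Terminal transferases can add A or U to the 3′ end after cleavage, and such a base is recognised only where it differs from the hairpin.

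J1 cells, a mouse embryonic stem cell line (mESC) adapted to growth on gelatin with leukaemia inhibitory factor, received 1 mM AICAR, an activator of the AMP-activated protein kinase, or an equal volume of DMSO for 24 h. The control is called DMSO after its treatment label, while its title, J1_U, does not name the solvent. There was 1 small RNA library for each condition, both from the same line and medium. No difference below therefore has a replicate check within the sequencing. Each exact test compares 2 libraries rather than the treatments, and each interval covers counting error only. PCR copies of a molecule cannot be told from other molecules, so the intervals can be too narrow even for that.

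The DMSO library held 18870345 clean reads and the AICAR library 21091226, so that 1 read was worth 0.0530 and 0.0474 RPM (reads per 1000000 clean reads). Mir hairpins took 11.6% of the clean reads with DMSO and 15.7% with AICAR, and RPM were computed on all clean reads. The miR-290 family marks mouse ES cells. Of its hairpins, the 6 chosen (Mir290a, Mir291a, Mir292, Mir293, Mir294 and Mir295, without Mir291b) took 28.6% and 36.4% of the hairpin reads. Markers of other cell types were not absent: the hairpins fixed for neural, mesenchymal, muscle and liver cells (Mir124a-1, Mir9-1, Mir145a, Mir143, Mir1a-1, Mir133a-1 and Mir122) ranged from 0.318 to 257 RPM with DMSO and from 0.427 to 410 RPM with AICAR, with none at 0. Mir122 was at 2.92 and 25.4 RPM and Mir145a at 7.21 and 18.02 RPM. In RNA from a whole culture, fewer cells of a type and less RNA per cell cannot be told apart. The part of these levels in the values below was not tested.

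Rtl1 is annotated on the minus strand at chr12:109589193-109600330 (GRCm38) with 2 exons, and each of the 7 hairpins lies in exon 2 within the coding sequence. On the plus strand, opposite Rtl1, are Mir431 (chr12:109590447-109590537), Mir433 (chr12:109591715-109591838), Mir127 (chr12:109592846-109592915), Mir434 (chr12:109594506-109594599), Mir432 (chr12:109594956-109595030) and Mir136 (chr12:109595327-109595388). Mir3071 (chr12:109595318-109595397) covers Mir136 on the minus strand, so it is sense to Rtl1 and the name anti-Rtl1 does not hold for it. The mature sequences of the arms below are those of RefSeq (GRCm38.p6), with the seed in capitals. They are shown because the results turn on which arm, which 5′ end and which last bases were sequenced.
miR-431-5p: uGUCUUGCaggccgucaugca
miR-431-3p: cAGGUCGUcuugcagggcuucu
miR-433-5p: uACGGUGAgccugucauuauuc
miR-433-3p: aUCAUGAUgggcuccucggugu
miR-127-5p: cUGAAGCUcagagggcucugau
miR-127-3p: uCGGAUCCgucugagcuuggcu
miR-434-5p: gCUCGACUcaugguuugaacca
miR-434-3p: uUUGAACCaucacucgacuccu
miR-432: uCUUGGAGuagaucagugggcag
miR-136-5p: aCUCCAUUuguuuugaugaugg
miR-136-3p: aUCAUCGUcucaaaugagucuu

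The reverse complement of each of these 11 sequences was found in the Rtl1 transcript of 6358 nt. Their seeds all differ, and no other arm tested in the libraries had one of them. No tag of these hairpins, with or without a 3′ tail, matched a GENCODE transcript or hairpin outside Rtl1 in either orientation. The seeds of miR-433-3p and miR-136-3p share the letters UCAU but not the rest.

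Mir432 and Mir3071 had 0 reads in both libraries, which allows a level of up to 0.159 RPM with DMSO and 0.142 RPM with AICAR (3 reads). With 1 mismatch allowed, Mir432 had 1 read in the DMSO library and Mir3071 had 0. The strand opposite each plus-strand hairpin also had 0 reads, so all reads at the overlap of Mir136 and Mir3071 lay on the strand of Mir136. Over the whole Rtl1 transcript, 23 DMSO and 27 AICAR reads were sense to Rtl1, against 41665 and 36691 antisense reads. The member hairpins held 99.95% of the antisense reads with DMSO and 99.97% with AICAR. The small RNA antisense to Rtl1 thus lay almost wholly on these hairpins. The Rtl1 mRNA itself is too long for these libraries and was not measured.

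The reference tag of an arm was the most abundant tag on that side of the hairpin over both libraries, and the arm's reads were those with a start at most 2 nt and an end at most 4 nt away from it. By level, 3 of the 10 arms stood far above the rest. miR-433-3p had 18663 reads (989 RPM) with DMSO and 13805 reads (655 RPM) with AICAR. miR-127-3p had 16838 reads (892 RPM) and 11166 reads (529 RPM). miR-434-3p had 3575 reads (190 RPM) and 10057 reads (477 RPM). Together these 3 arms made up 94.3% of the reads of the group with DMSO and 95.7% with AICAR. Within the group, miR-434-3p went from 8.62% to 27.5% of the reads, miR-433-3p from 45.02% to 37.7% and miR-127-3p from 40.6% to 30.5%.

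The other 7 arms lay between 3.56 and 26.2 RPM in both libraries. From Mir431, miR-431-5p had 262 reads (13.9 RPM) with DMSO and 259 (12.3 RPM) with AICAR, and miR-431-3p had 495 (26.2 RPM) and 221 (10.5 RPM). From Mir136, miR-136-5p had 424 (22.5 RPM) and 347 (16.5 RPM), and miR-136-3p had 306 (16.2 RPM) and 156 (7.396 RPM). These hairpins thus gave a sizeable part of their reads from each arm, whereas Mir433, Mir127 and Mir434 gave nearly all of their reads from the 3p arm. Their 5p arms had 477 and 312 reads (25.3 and 14.8 RPM) for miR-433-5p, and 299 and 202 reads (15.8 and 9.58 RPM) for miR-127-5p. The lowest arm was miR-434-5p, with 117 reads (6.20 RPM) and 75 reads (3.56 RPM).

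**Figure D1:**
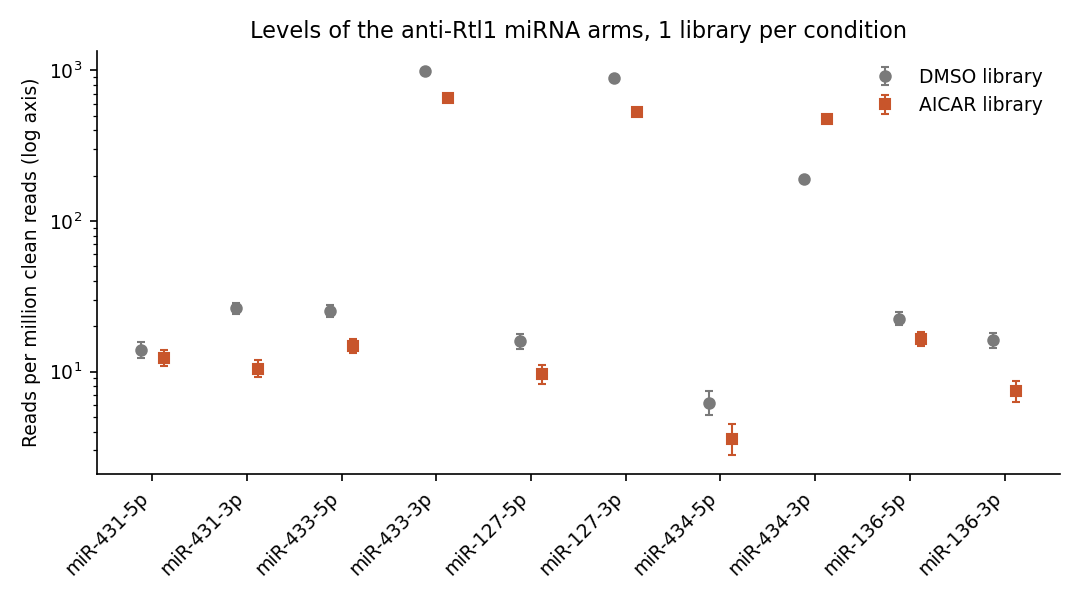
RPM (log axis) of the 10 anti-Rtl1 arms with reads, with DMSO (circles) and with AICAR (squares), 1 library each; bars are 95% exact Poisson intervals and cover counting error only. The 3p arms of Mir433, Mir127 and Mir434 lie between 190 and 989 RPM and the other 7 arms between 3.56 and 26.2 RPM, and miR-434-3p is the arm with the higher AICAR value.

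Levels were compared between the libraries by the fold change of RPM, AICAR over DMSO, and the arm's reads were set against all other clean reads by Fisher's exact test (two-sided). An arm counted as higher at a fold of 2 or more and as lower at 0.5 or less, each with p of 0.01 or less. Of the 10 arms, 1 was higher, against 11.9% of the 529 arms tested in all, and 2 were lower, against 9.45%. Without the condition on the fold, 8 of the 10 were lower (24.2% of all arms) and 1 was higher (36.3%). The median fold of the 10 arms was 0.599 (log2 -0.74), while that of all 529 arms was 1.11 (log2 0.15). Of all arms, 305 were above a fold of 1 and 224 below. Another library total moves every arm alike on the log2 scale, by -0.45 where RPM are taken over the reads assigned to miRNAs, by -0.17 with TMM scaling and by -0.10 with median-ratio scaling. On the miRNA reads the counts became 0 higher, against 4.16% of all arms, and 7 lower, against 21.7%.

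miR-434-3p was the arm past the threshold upwards, at 2.52 times its DMSO level (95% interval 2.42 to 2.62). Relative to the reads assigned to miRNAs it was at 1.85 times (1.78 to 1.92), still above 1 but short of the threshold. The arm that pairs with it in the duplex, miR-434-5p, was at 0.574 times (0.423 to 0.773), the opposite direction. That these arms differ in direction was known when the hairpins were chosen, so their values are a description and nothing is read from their part in the counts above. Such a split was not rare: of the 152 hairpins with both arms at 1 RPM or more, 19 (12.5%) had arms on opposite sides of a fold of 1 with p of 0.01 or less on both. Within the group it was seen for Mir434 and not for the other 4 hairpins.

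The 2 arms past the threshold downwards were miR-431-3p, at 0.3995 times (0.339 to 0.469, Fisher's exact p = 2.7e-32), and miR-136-3p, at 0.456 times (0.374 to 0.555, exact p = 2.3e-16). Their partner arms lay nearer to 1. miR-136-5p was at 0.732 times (0.634 to 0.846, exact p = 1.7e-05). miR-431-5p was at 0.885 times with an interval that included 1 (0.742 to 1.05, exact p = 0.17), so no change of it was detected on clean reads. With another library total its interval lay below 1. It was at 0.649 times (0.545 to 0.774) relative to the reads assigned to miRNAs. With TMM scaling it was at 0.785 times (0.659 to 0.936) and with median-ratio scaling at 0.824 times (0.691 to 0.982).

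Both arms of Mir433 and of Mir127 were lower, by amounts short of 2-fold. miR-433-3p was at 0.662 times its DMSO level (0.647 to 0.677, exact p = 3.6e-300) and miR-433-5p at 0.585 times (0.506 to 0.676, exact p = 1.1e-13). miR-127-3p was at 0.593 times (0.579 to 0.608) and miR-127-5p at 0.604 times (0.503 to 0.725, exact p = 2.5e-08). Within each of these hairpins the intervals of both arms overlapped.

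Summed over the 10 arms, the group fell from 2197 to 1735 RPM, a fold of 0.790 (0.779 to 0.801). Without miR-434-3p the sum fell from 2007 to 1258 RPM, a fold of 0.627 (0.617 to 0.637). The median fold of the group was close to that of the other plus-strand hairpins between the start of Meg3 and the end of Mirg, whose 69 arms had a median of 0.594 (log2 -0.75). Of these 69, 61 were below a fold of 1, 24 were lower by the thresholds and 0 were higher. The highest of the 69 were miR-666-3p at 1.47 times, with an interval that included 1 (0.725 to 3.09), and miR-299a-5p at 1.44 times (1.23 to 1.70).

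**Figure D2:**
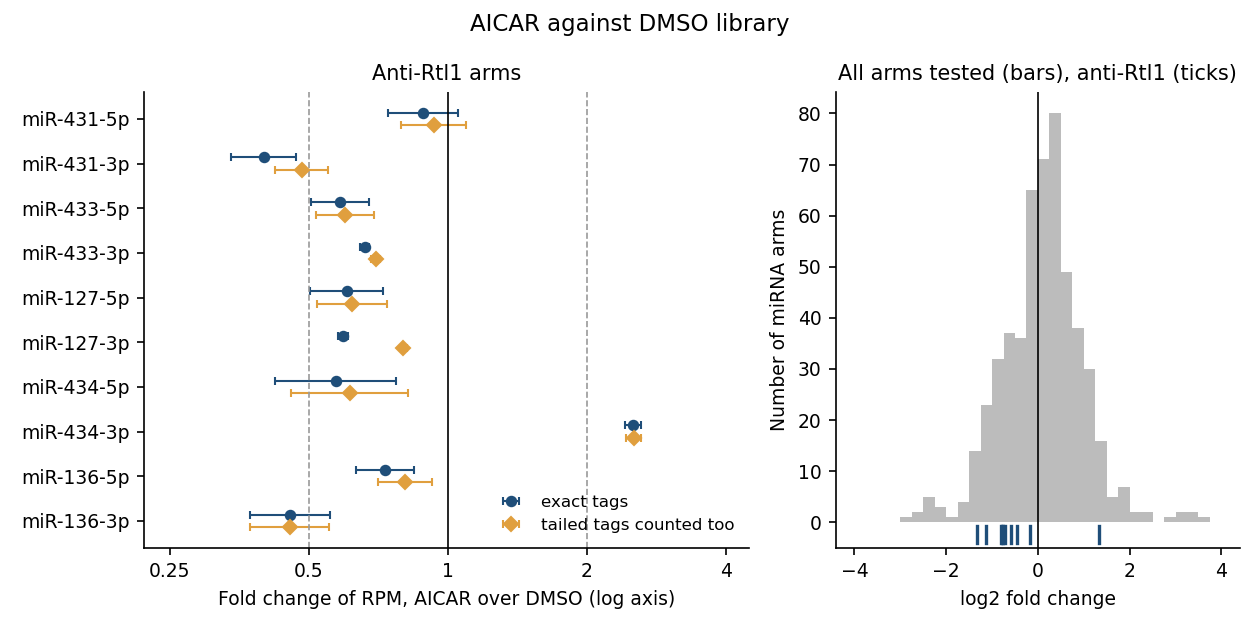
Left, fold change of RPM (AICAR over DMSO, log axis) of the 10 arms with 95% exact binomial intervals, counted from exact tags (circles) and with 3′-tailed tags added (diamonds); the solid line is a fold of 1 and the dashed lines are 0.5 and 2. Right, the log2 fold changes of all 529 arms tested (bars, number of arms) with the 10 arms as ticks: 9 lie below 0 and miR-434-3p lies at 1.33.

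The 2 arms of a hairpin come from the same precursor, so their ratio needs no library total. The 5p share was tested over 309 hairpins with Fisher's exact test and Benjamini-Hochberg adjustment, and a change was called at an adjusted p of 0.01 or less with an odds ratio of at least 2 or at most 0.5. Mir434, whose split was known beforehand, is described without a test. Of the other 4 hairpins, 0 were called downwards (4.85% of the 309) and 1 upwards (7.44%).

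In Mir434 the 5p share went from 3.17% (95% Wilson interval 2.65 to 3.79) to 0.740% (0.591 to 0.927), an odds ratio of 0.228. In other words, the DMSO library held 30.6 miR-434-3p reads for each miR-434-5p read and the AICAR library 134. In Mir431 the share went the other way, from 34.6% (31.3 to 38.1) to 54.0% (49.5 to 58.4), an odds ratio of 2.21 (adjusted exact p = 2.5e-10). Its odds ratio was 1.63 for tags of at least 21 nt, 1.93 with 3′-tailed tags counted and 1.98 for tags identical to the reference tags. These values were short of the call, while all tags on either side of the hairpin gave 2.275. By exact tags of all lengths the more abundant arm was miR-431-3p with DMSO and miR-431-5p with AICAR, but with AICAR miR-431-3p was the larger for tags of at least 21 nt (177 against 96 reads) and with tails (353 against 311 reads).

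Mir136 gave more 5p than 3p reads in both libraries, with a 5p share of 58.1% (54.5 to 61.6) and 69.0% (64.8 to 72.9). This difference passed the adjusted p (0.00055, Fisher's exact test) but not the odds ratio, which was 1.605. Counted only from tags identical to the reference tags, the odds ratio was 2.36 and the change was called. The shares of the other 2 hairpins did not differ detectably. Mir433 was at 2.49% and 2.21% (odds ratio 0.884, adjusted exact p = 0.23), and Mir127 at 1.74% (1.56 to 1.95) and 1.78% (1.55 to 2.04; odds ratio 1.02, adjusted exact p = 1).

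**Figure D3:**
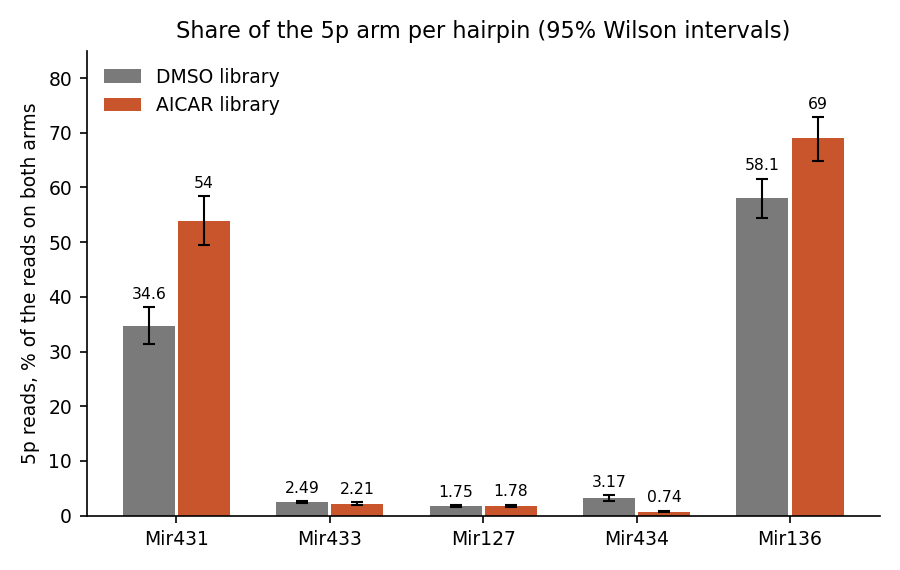
Reads of the 5p arm as a percent of the reads on both arms, for the 5 hairpins with reads, with DMSO (grey) and with AICAR (orange), with 95% Wilson intervals. The share fell from 3.17% to 0.740% in Mir434 and rose from 34.6% to 54.0% in Mir431, and lay near 2% in both libraries for Mir433 and Mir127.

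The ends of the reads were compared over the 307 arms with at least 100 reads in each library, a group that held 9 of the 10 arms; miR-434-5p had too few reads. A change was called at an adjusted p of 0.01 or less and a difference of at least 5 percentage points. For the reference 5′ end, 1 of the 9 arms rose, against 1.95% of the 307, and 0 fell, against 1.63%.

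The arm that rose was miR-433-3p, whose reads started at the reference base in 78.0% (77.4 to 78.6) with DMSO and 85.2% (84.6 to 85.8) with AICAR (adjusted Fisher's exact p = 3.1e-59). Nearly all of its other reads started 1 base later, which moves the seed by 1 base. The main tags of both starts are shown with the seed in capitals, in the letters of the files.
reference start: aTCATGATgggctcctcggtgt
start 1 base later: tCATGATGggctcctcggtgt
The first had 13072 reads with DMSO and 10573 with AICAR, a fold of 0.724 (0.705 to 0.743). The second had 3713 and 1851 reads, a fold of 0.446 (0.422 to 0.472). Of these 2 tags, the one with the shifted seed fell past 2-fold, but they also differ in length. The 21-nt tag with the reference start was at 0.546 times (0.469 to 0.635). The 22-nt tag that starts 1 base later was at 0.551 times (0.384 to 0.785, from 86 and 53 reads). All starts 1 base later made up 21.4% and 14.2% of the arm.

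miR-434-3p and miR-127-3p had nearly uniform starts, at the reference base in 94.9% and 97.4% for the former and in 99.6% and 99.8% for the latter. All reads of miR-431-5p and of miR-433-5p had the reference start. In 3 arms, by contrast, the most abundant tag did not begin at the RefSeq start.

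The reference tag of miR-431-3p started 2 bases before the RefSeq start, which gives the seed GCAGGTC in place of AGGTCGT. It had 162 reads with DMSO and 83 with AICAR, while the tag identical to the RefSeq sequence had 0 in both. Tags of other lengths that began at the RefSeq start, and so carried its seed, had 27 and 15 reads. The reference start held 81.0% of the reads of this arm in each library. For miR-136-3p the reference start lay 1 base before the RefSeq one. Its reference tag had 83 and 44 reads, against 2 and 0 for the tag of the RefSeq sequence. All tags of this arm with the RefSeq start had 9 reads in each library. The arm's reference tag and that of miR-431-3p are shown with the seed in capitals.
miR-431-3p as sequenced: tGCAGGTCgtcttgcagggcttc
miR-136-3p as sequenced: cATCATCGtctcaaatgagtc

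miR-127-5p had a pair of starts of like weight, 2 bases apart. The later one was the reference, with 45.2% (39.6 to 50.8) of 299 reads with DMSO and 58.9% (52.0 to 65.5) of 202 with AICAR, while the RefSeq start held 44.8% and 32.2%. The difference between the libraries did not reach the threshold (adjusted Fisher's exact p = 0.019). Their main tags carry different seeds.
later start: gAAGCTCAgagggctctgattc
RefSeq start: cTGAAGCTcagagggctctgat
The first had 117 reads with DMSO and 96 with AICAR, and the second 62 and 35.

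The 3′ ends varied more than the 5′ ends. Over the 307 arms the median share of reads with the reference 5′ end was 98.0% with DMSO and 98.3% with AICAR, and that with the reference 3′ end 62.8% and 68.6%. The libraries also differed in length: the median share of tags shorter than 21 nt was 4.90% and 2.73%, lower with AICAR in 262 of the 307. Of the 9 arms, 2 rose in the share of the reference 3′ end, against 22.5% of the 307, and 0 fell, against 6.51%. They were miR-434-3p, from 46.2% (44.6 to 47.9) to 56.0% (55.0 to 57.0; adjusted exact p = 9.4e-23), and miR-136-5p, from 37.5% (33.0 to 42.2) to 60.2% (55.0 to 65.2; adjusted exact p = 2e-09).

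In miR-434-3p the fold was lower for shorter tags. The main tags of this arm, with the seed in capitals, differ by the last base.
22 nt: tTTGAACCatcactcgactcct
21 nt: tTTGAACCatcactcgactcc
The 22-nt tag had 1647 reads with DMSO and 5603 with AICAR, at 3.04 times (2.88 to 3.22). The 21-nt tag had 1583 and 3891 reads, at 2.20 times (2.07 to 2.33). Both were higher with AICAR, with intervals that did not overlap. The 20-nt tag with the same start was at 2.11 times (1.66 to 2.69; 99 and 233 reads), the 19-nt tag at 1.18 times (0.742 to 1.91; 34 and 45 reads) and the 18-nt tag at 0.656 times (0.361 to 1.18; 30 and 22 reads). The intervals of the 19-nt and 18-nt tags included 1. The 22-nt tag that starts 1 base earlier, at 1.27 times (1.02 to 1.57; 152 and 215 reads), lay below the 22-nt tag with the reference start.

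In miR-433-3p, which was lower as a whole, the 23-nt tag with the reference start was the nearest to 1 and the 18-nt tag the furthest below, leaving out a 24-nt tag with 0 and 3 reads. The 23-nt tag was at 0.949 times (0.851 to 1.06; 638 and 677 reads), the 19-nt tag at 0.329 times (0.218 to 0.486; 98 and 36 reads) and the 18-nt tag at 0.108 times (0.0279 to 0.305; 33 and 4 reads). In between, the 21-nt tag at 0.546 times (0.469 to 0.635; 457 and 279 reads) and the 20-nt tag at 0.648 times (0.533 to 0.785; 257 and 186 reads) had overlapping intervals. In miR-127-3p the 22-nt tag was at 0.604 times (0.590 to 0.620; 15491 and 10465 reads), the 21-nt tag at 0.552 times (0.483 to 0.631; 580 and 358 reads), the 20-nt tag at 0.507 times (0.378 to 0.677; 134 and 76 reads) and the 19-nt tag at 0.298 times (0.0848 to 0.863; 15 and 5 reads). Here too the shortest of these was the lowest, with wide intervals, but the 23-nt tag, templated to the last base, broke the order at 0.377 times (0.322 to 0.440; 555 and 234 reads).

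In miR-136-5p reads ended mainly at 1 of 2 places, 3 bases apart, and only the tag with the earlier end was detectably lower.
23 nt: aCTCCATTtgttttgatgatgga
20 nt: aCTCCATTtgttttgatgat
The 23-nt tag, the reference, had 139 reads with DMSO and 174 with AICAR, at 1.12 times (0.891 to 1.41). The 20-nt tag had 190 and 83 reads, at 0.391 times (0.298 to 0.508). Tags under 21 nt made up 54.0% of this arm with DMSO and 29.7% with AICAR. The fold of 0.732 given above for miR-136-5p was 1.12 both for the reference tag alone and for tags of at least 21 nt (0.924 to 1.36). Both intervals included 1, so on clean reads the lower level of the arm rested on its short tags. Relative to the reads assigned to miRNAs, where every log2 fold moves by -0.45, both values lie below 1. miR-136-3p was also rich in tags under 21 nt, at 55.6% and 41.0%, and its fold with at least 21 nt was 0.605 (0.459 to 0.794), no longer past the threshold. In miR-431-5p, where such tags made up 56.5% and 62.9%, the share moved the other way.

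**Figure D4:**
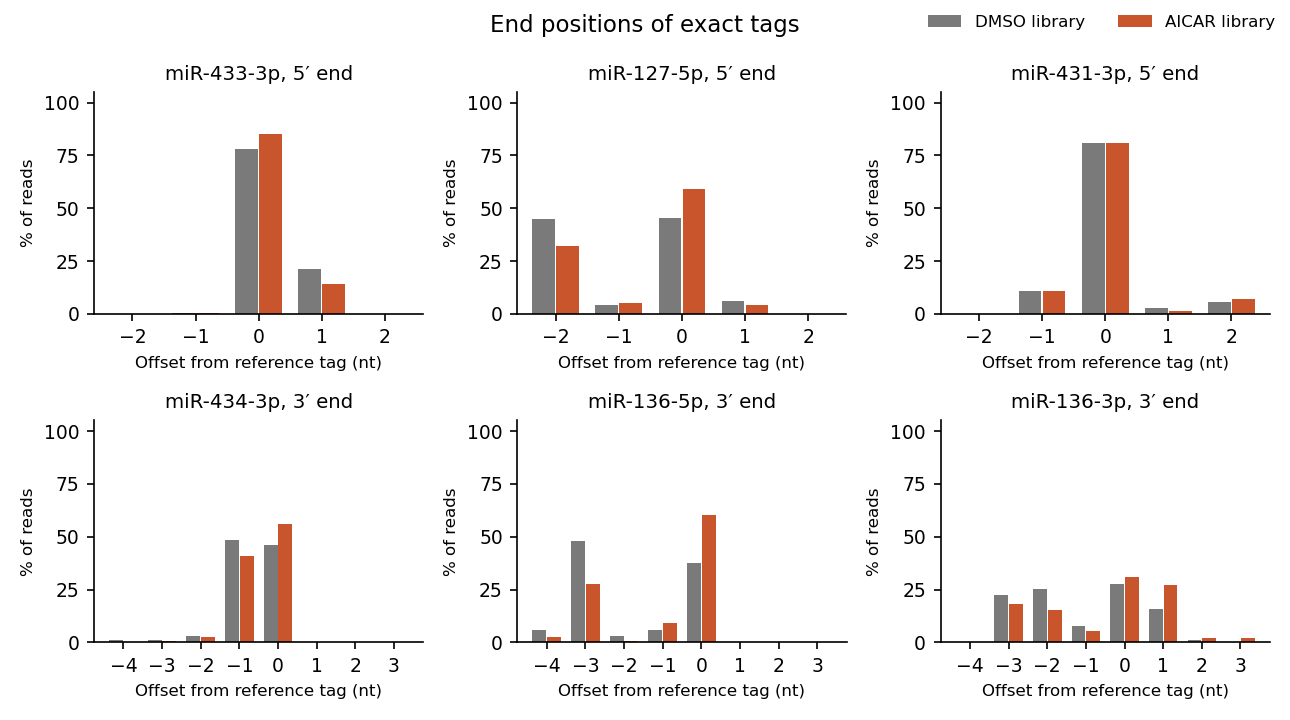
Percent of the exact reads of an arm (y axes) by the offset in nt from the reference tag (x axes), for the 5′ ends of miR-433-3p, miR-127-5p and miR-431-3p (upper panels) and the 3′ ends of miR-434-3p, miR-136-5p and miR-136-3p (lower panels); grey is the DMSO and orange the AICAR library. In miR-433-3p the start 1 base later falls from 21.4% to 14.2%, and in miR-136-5p the reference 3′ end rises from 37.5% to 60.2%.

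A last set of reads matched an arm of the hairpin up to its final 1 to 3 bases and then departed from it. Such tails were not counted in the values above. An added base equal to the next hairpin base was counted as templated. The last A of the 23-nt miR-136-5p tag and the last T of the 23-nt miR-433-3p tag could each be of either kind. Over the 307 arms the median share of tailed among exact and tailed reads was 7.33% with DMSO and 10.1% with AICAR, and it was higher with AICAR in 242. Of the 9 arms, 3 rose by the thresholds, against 16% of the 307, and 0 fell, against 0.651%. Counting tails made only of A or only of T left 2 of them, miR-127-3p then going from 26.1% to 30.1%, a difference under 5 points. No share over all arms is given for this count.

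miR-127-3p was tailed in 45.9% of its reads (45.4 to 46.5; 14298 of 31136) with DMSO and 59.99% (59.4 to 60.6; 16740 of 27906) with AICAR (adjusted Fisher's exact p = 1e-254). By tailed share it ranked 17 of 307 arms with DMSO and 12 with AICAR. Its most abundant tailed tag is shown with the added bases in capitals.
miR-127-3p with a tail: tcggatccgtctgagcttggctAT
This tag had 3939 reads with DMSO and 5545 with AICAR, 1.26 times (1.21 to 1.31), whereas the untailed 22-nt tag was at 0.604 times. Tails reading AT made up 4824 reads with DMSO and 7051 with AICAR over all end positions of the arm, at 1.31 times (1.26 to 1.36). Tails made only of T were at 1.14 times (1.10 to 1.19; 4065 and 5203 reads), and tails made only of A at 0.705 times (0.673 to 0.739; 4073 and 3209 reads). These directions depend on the library total. Relative to miRNA reads with tails counted in both, AT tails were at 0.952 times (0.917 to 0.987), tails of T alone at 0.833 times (0.7997 to 0.868), tails of A alone at 0.513 times (0.490 to 0.537) and the untailed 22-nt tag at 0.440 times (0.429 to 0.451), so the order was kept and the values above 1 moved below it.

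The other arms that rose were miR-431-3p, from 24.3% (21.2 to 27.7) to 37.4% (32.5 to 42.6; adjusted exact p = 7.2e-05), and miR-136-5p, from 8.42% (6.22 to 11.3) to 17.2% (13.9 to 21.1; adjusted exact p = 0.00038). The tails of miR-136-5p were made only of A, in all of its 39 tailed reads with DMSO and 71 of 72 with AICAR, while those of miR-431-3p were of A alone in 50.9% and 47.7%. miR-433-3p, at 7.05% (6.71 to 7.42) and 11.9% (11.4 to 12.4), passed the adjusted p (8.2e-54, Fisher's exact test) but rose by 4.84 points, just under the limit of 5. miR-431-5p was at 12.1% and 16.7% (adjusted exact p = 0.20), and most of its tails were of T alone.

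miR-434-3p had few tails, 2.77% (2.29 to 3.36) with DMSO and 3.24% (2.92 to 3.60) with AICAR (adjusted exact p = 0.29), and ranked 240 and 259 of the 307 arms. Among them, tails of T alone went from 23 to 138 reads, 5.37 times (3.44 to 8.75), and tails of A alone from 68 to 172 reads, 2.26 times (1.70 to 3.04). Of the exact and tailed reads of the arm, tails of T alone made up 0.626% and 1.33%, and tails of A alone 1.85% and 1.66%. Relative to miRNA reads with tails counted in both, the folds were 3.91 (2.50 to 6.37) for T alone and 1.65 (1.24 to 2.21) for A alone. miR-433-5p (0.832% and 3.11%) and miR-136-3p (2 and 1 tailed reads) had almost none, and miR-127-5p was at 5.97% and 8.597%. Of the abundant 3p arms, that of Mir127 was thus among the most tailed and that of Mir434 in the lower part of the range.

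**Figure D5:**
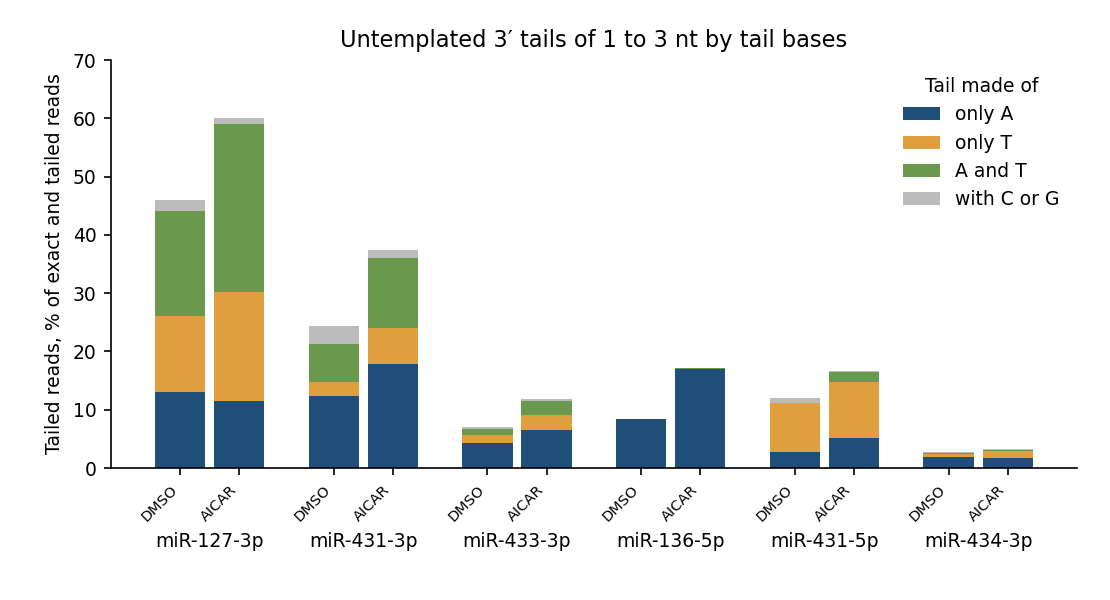
Reads with an untemplated 3′ tail of 1 to 3 nt as a percent of the exact and tailed reads of the arm (stacked bars starting at 0), split by the bases of the tail, for 6 arms, 1 bar a library. The bars of miR-127-3p reach 45.9% and 59.99%, those of miR-434-3p 2.77% and 3.24%, and in miR-136-5p nearly the whole bar is A.

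Counting the tailed reads changed the order of the arms. miR-127-3p then had 31136 reads (1650 RPM) with DMSO and 27906 (1323 RPM) with AICAR and stood above miR-433-3p, with 20079 (1064 RPM) and 15669 (743 RPM). The fold of miR-127-3p became 0.802 (0.789 to 0.815) in place of 0.593. That of miR-433-3p became 0.698 (0.684 to 0.713) and that of miR-434-3p 2.53 (2.44 to 2.63). No arm crossed a fold of 1. The intervals of miR-431-3p (0.483; 0.423 to 0.551) and miR-136-3p (0.456; 0.374 to 0.555) then reached beyond 0.5, as that of miR-136-3p did for exact tags.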

How the data were processed

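The deposited values were read counts: per the labels and the study's methods, the authors sequenced size-selected small RNA from 1 DMSO and 1 AICAR culture, removed low-quality and contaminant reads and collapsed identical clean reads into tags, of 18 to 44 nt in the tables. No alignment was applied to these counts; the versions of the tools are not given in the sources used here. The submitters' processing notes name mm9, while all coordinates here are GRCm38 (GENCODE vM21, RefSeq).

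Tags were matched without mismatch to the GENCODE hairpins and assigned to arms within 2 nt of the reference start and 4 nt of its end. Arms with at least 1 RPM in either library were tested (scipy 1.17.1, Fisher's exact test, exact binomial fold intervals, Wilson intervals for shares). edgeR 4.0.16 gave TMM factors and exact tests at assumed coefficients of variation. The matching of tags, the recovery of 1-nt tails, the fold test and the arm share test were tested on simulated data, and the other steps were not. The named arms are all arms of the 7 hairpins. The members, lists and tests were chosen with earlier results of these data known, among them the opposite directions of the Mir434 arms, which are given as a description. Uniqueness was checked against transcripts only.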

Additional observations from a re-analysis of the deposited data

How the results depend on the processing

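No paired analysis was possible because each condition has 1 library, and for the same reason no replicate could be left out. Of 90 arm folds recomputed from other reads or another total, 77 kept their direction and side of the thresholds, 3 lost a call, 8 gained one and 2 reversed. Under another filter, adjustment or test the fold itself is the same by construction, and 4 of 49 values lost a call. The reversals were both of miR-136-5p, at 1.12 for tags identical to the reference tag and 1.12 for tags of at least 21 nt. Both had intervals that included 1. Relative to the reads assigned to miRNAs, which took a larger part of the AICAR library, 0 arms were higher (miR-434-3p at 1.85) and 7 lower, and the summed fold was 0.580. With tails counted and miRNA reads counted the same way, an alternative chosen after seeing the data, 0 were higher, 5 were lower and the sum was at 0.632. An edgeR exact test with an assumed coefficient of variation of 0.2 left 1 lower arm, and with 0.4 it left 0 higher and 0 lower, against 1 and 2 by Fisher's exact test at the same fold thresholds. Tags of at least 21 nt left 1 lower arm. The summed fold was 0.701 with TMM scaling, 0.736 with median-ratio scaling, 0.829 for the reference 5′ end and 0.868 with tails. Mir431 lost its call of a changed arm share for tags of at least 21 nt (odds ratio 1.63) and with tails counted (1.93). It also lost the call for tags identical to the reference tags (1.98), where Mir136 gained one at 2.36. The odds ratio of Mir434, given as a description, lay between 0.216 and 0.285 over all alternatives. The odds ratio of Mir127, not called, changed side of 1 to 0.967 for all tags on either side of the hairpin and 0.775 with tails. With tags of at least 21 nt, 1 arm in place of 2 rose in the share of the reference 3′ end, and with tails only of A or only of T, 2 in place of 3 rose in the tailed share. The cause of these changes was not tested. Shares over all arms are given only for the main settings and for the reads assigned to miRNAs. The other counts here have no such share beside them and are not read as a result about the group. Depth limits miR-434-5p most, with 117 and 75 reads.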
